A study of Mus musculus with 8 samples.

Results

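The genes described here are 9 regulators of cartilage matrix breakdown: the secreted proteases Adamts1, Adamts2, Adamts4, Adamts5 and Adamts9 and the metalloproteinase inhibitors Timp1, Timp2, Timp3 and Timp4. They were taken by gene symbol from the 18501 genes of the deposited expression table, and all 9 were found there. All 9 also passed the filter on low counts. Timp4 passed it through 48 and 10 counts in CG mutants and 13 in CT WT replicate 1, so no difference of Timp4 between groups is support for a change.

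The libraries hold RNA of chondrocytes, the cells that make cartilage, which had been freed from rib cartilage of 10-day-old CD1 mice by overnight collagenase digestion, filtered and plated. All 4 groups shared that strain, age, tissue and digestion. CG mutants (labelled CG CG) carry a mutation in the seed region of the 3p arm of Mir140, and CG WT mice are their wild types. CT mutants (labelled C>T CT) carry a C>T base change, and CT WT mice are their wild types. The design text describes both mutants as overexpressing the 5p arm of this microRNA, which is abundant in cartilage. There were 2 libraries per group, and the sources used here give neither the zygosity nor the position of the base changes.

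ADAMTS proteases are secreted metalloproteinases with thrombospondin motifs. Adamts4 and Adamts5 cut aggrecan, the proteoglycan that gives cartilage its resistance to compression, and in mice loss of Adamts5 protects cartilage in a surgical model of osteoarthritis. TIMPs bind the active site of matrix metalloproteinases and of some ADAM and ADAMTS proteases. Timp3 is bound to the matrix and is the TIMP that inhibits Adamts4 and Adamts5 most strongly. Adamts5 has been reported as a target of miR-140.

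A microRNA arm pairs through its seed, bases 2 to 8, with sites in messenger RNAs, and the CG mutation lies in the seed region of the 3p arm. The unmutated 3p arm is shown for that reason, with its seed in capitals, and miR-140-5p was not searched for here. RefSeq places it on the + strand of GRCm38.p6 at chr8:107551288-107551308.
mmu-miR-140-3p: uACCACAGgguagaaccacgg

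The 7 bases that pair with this seed, CTGTGGT, were found in the annotated 3′ UTR of 7 of the 9 members, against 19.3% of 13844 genes with a 3′ UTR. All 5 ADAMTS members had at least 1 match, as did Timp2 and Timp4, and none was found in Timp1 or Timp3. The 3′ UTRs of the ADAMTS members span 1459 to 6437 bases and those of Timp2, Timp3 and Timp4 2630 to 4394 bases, against a median of 1188.5 over all genes, while that of Timp1 has 103 bases. Per length the members held 3.90 matches per 10 kb, from 10 matches in 25628 bases, against 1.41 per 10 kb over all genes. A match is a description of letters and not a site shown to be used. The stretches below, from GENCODE M21 on GRCm38, come from members whose values differed most between CG libraries, and the capitals mark the match. Of the 3 matches in Adamts2, 1 is shown.
Adamts5, bases 2 to 8 after the stop codon: cCTGTGGTttactct
Adamts5, bases 56 to 62: catcgcagatacagCTGTGGTgaagaca
Adamts4, bases 781 to 787: ggcagctgctgctcCTGTGGTccttgtt
Adamts9, bases 1573 to 1579: ccctgccgggtttcCTGTGGTcttcagc
Adamts2, bases 1141 to 1147, followed by an A: gcccctacccatggCTGTGGTagaagag
Timp4, bases 53 to 59: accaagccagttctCTGTGGTcctttga

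Total counts ran from 26536868 to 28678641 per library. Principal component 1 (64.5% of the variance) split the CT from the CG libraries, and component 2 (12.2%) set CG mutant replicate 1 apart. Defining chondrocyte genes were present in every library: all 14 listed markers exceeded 1 CPM (the count scaled to the TMM-adjusted library size), and Col2a1, the main cartilage collagen, stood at 24140 CPM or more. In CG mutant replicate 1 the 14 chondrocyte markers summed to 60088 CPM, against 35160 CPM in CG mutant replicate 2 and 37349 and 36375 CPM in CG WT. Of these 14, 10 were higher in CG mutant replicate 1 than in all other CG libraries, all but Comp, Hapln1, Matn1 and Snorc. Col2a1 alone stood at 41094 CPM there. The 9 fibroblast and tendon markers summed to 412 CPM there, against 1330 CPM in CG mutant replicate 2 and 1348 and 1174 CPM in CG WT, and all 9 were lower than in the other CG libraries. All 6 endothelial markers and 9 of 12 macrophage and leukocyte markers were lower there as well. In bulk RNA, fewer cells of a type and less RNA per cell cannot be told apart. Members' results in the CG line are therefore given with and without this library.

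**Figure D1:**
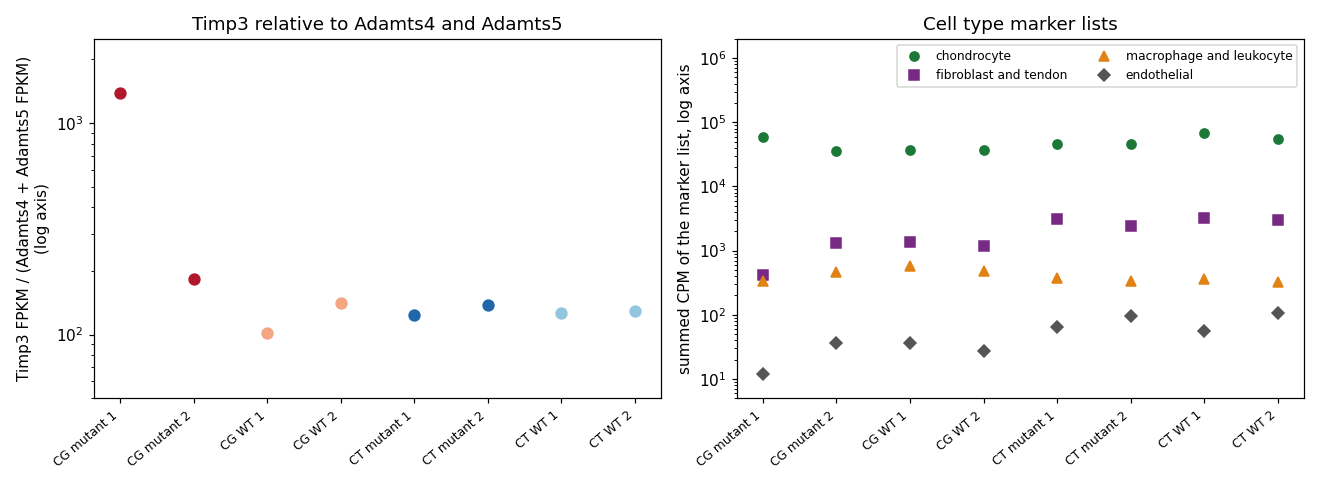
Left, the ratio of Timp3 FPKM to the summed FPKM of Adamts4 and Adamts5 in each library, on a log axis; right, summed CPM of 4 marker lists in each library, on a log axis. CG mutant replicate 1 has a ratio of 1383, against 101 to 183 in the other 7 libraries, and the lowest fibroblast and tendon sum, 412 CPM.

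Levels per transcript length (FPKM, the deposited unit that scales fragments by transcript length and library size) spread over 4 orders of size. Timp1 averaged 3891 ± 992 FPKM in CG mutants, 2744 ± 196 in CG WT, 2717 ± 493 in CT mutants and 2526 ± 741 in CT WT (SD, n = 2 each). By mean FPKM Timp1 had rank 10 of 18501 genes, and Timp3 had rank 92. Timp3 averaged 1253 ± 496 FPKM in CG mutants, 605 ± 16.3 in CG WT, 318 ± 41.3 in CT mutants and 328 ± 19.7 in CT WT. Timp2 came next in every group, with group means of 80.3 to 114 FPKM. Adamts1 was the abundant protease of the set, with group means of 32.6 to 49.8 FPKM. In each group Timp1, Timp3, Timp2 and Adamts1 followed in this order with no overlap between neighbours.

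The other 5 members lay low, at 3.37 FPKM or less in every library, and several neighbours in their order did not differ beyond their spread. In CG WT, Adamts9 (2.77 ± 0.53 FPKM) overlapped both Adamts5 (2.97 ± 0.57) and Adamts4 (2.16 ± 0.47). Adamts5, at 2.57 FPKM or more, did not overlap Adamts4, at 2.49 FPKM or less. In CT mutants the order was Adamts9, Adamts2, Adamts4 and Adamts5, with only Adamts2 and Adamts4 overlapping, and in CT WT Adamts2, Adamts5 and Adamts4 overlapped. In CG mutants all 5 low members overlapped their neighbours. Adamts1 made up 81.8% to 96.6% of the summed ADAMTS FPKM of a library, and Timp1 with Timp3 made up 95.6% to 98.9% of the summed TIMP FPKM. The ratio of Adamts5 to Adamts4 FPKM lay between 0.72 and 1.40 in all 8 libraries, so neither of the 2 aggrecanases dominated by transcript level.

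**Figure D2:**
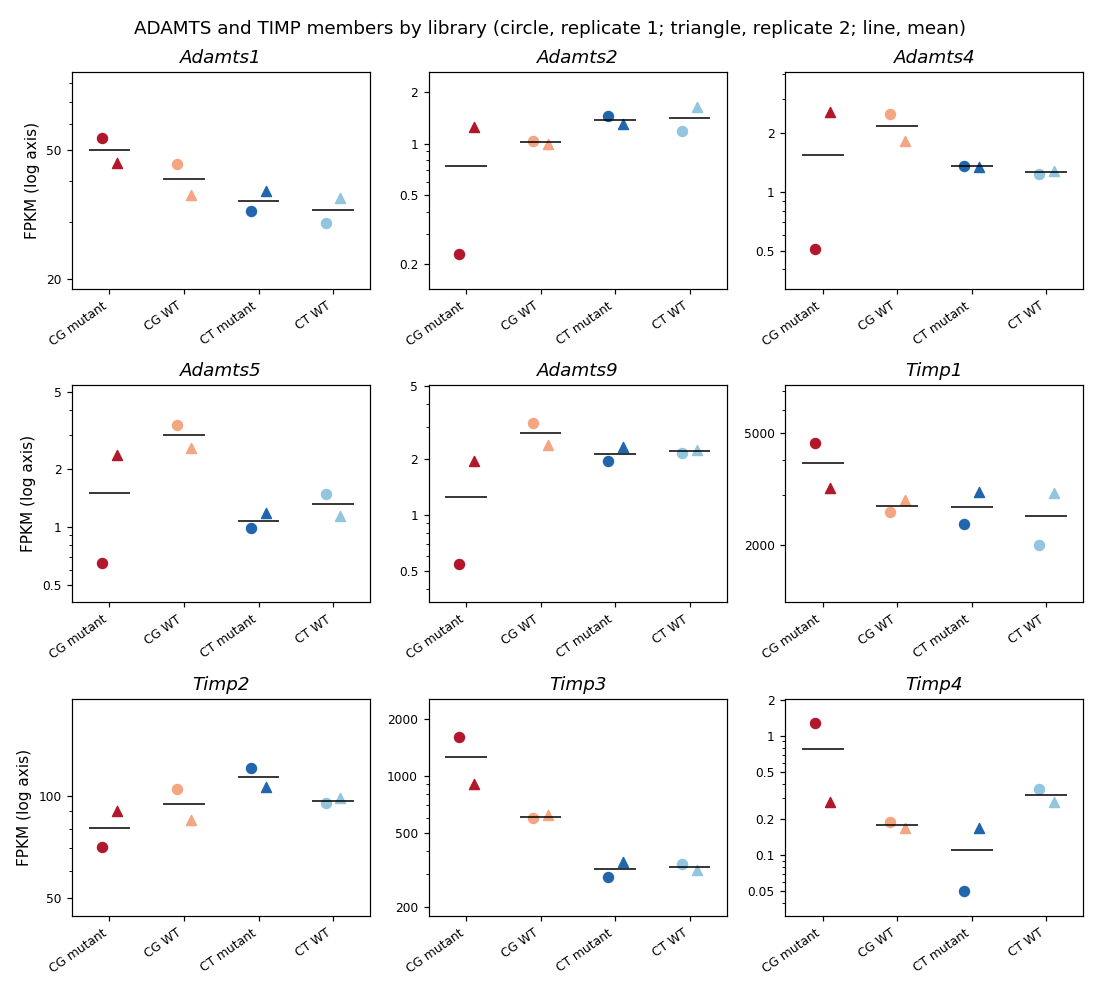
FPKM of the 9 members by group, on log axes with a range of their own in each panel; circles are replicate 1, triangles replicate 2 and lines the group mean. In Adamts2, Adamts4, Adamts5, Adamts9 and Timp2 the circle of CG mutants lies below all other libraries, and in Adamts1, Timp1, Timp3 and Timp4 above them.

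Timp1, Timp3 and Timp4 lie within genes of the opposite strand, and the sources used here do not say whether counting used strand. By GENCODE M21, Timp3 shares 1733 of 8144 exon bases with Syn3, which stood at 0.5 to 2.01 FPKM, and Timp4 shares 90 of 5894 with Syn2, which was at 0.08 FPKM or less. Timp1 lies within Syn1, with no shared exon base. Syn1 stood at 90.7 and 57.37 FPKM in CG mutants, 47.13 and 36.61 in CG WT, 15.52 and 18.64 in CT mutants and 12.85 and 15.83 in CT WT. Without strand, reads from the shared bases cannot be assigned to one gene of a pair.

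The comparison of CG mutants with CG WT asks what the 3p seed mutation did in its own line. No member passed edgeR's quasi-likelihood test at an adjusted p of 0.05, the threshold used throughout, and 0.00696% of all 14359 genes did. At an unadjusted p under 0.05, 3 of the 9 members passed (Timp3, Timp4 and Adamts9), against 11.4% of all genes. By DESeq2, 1 of the 8 members with an adjusted p passed, Timp3, against 1.88% of all genes. In 4 members both CG mutant libraries were higher than both CG WT libraries (Adamts1, Timp1, Timp3 and Timp4), against 23.2% of all genes, and in 2 members both were lower (Adamts5 and Adamts9), against 22.5%. Timp4 is no support in these counts, since CG mutants, its high group here, helped to carry it past the filter on low counts.

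Adamts5, the aggrecanase whose loss protects mouse cartilage, had 5.94 and 19.3 CPM in CG mutants, against 27.7 and 21.8 CPM in CG WT. Both CG mutant libraries were the lower ones, but replicate 2 was close to CG WT replicate 2. The log2 fold change was -0.97 ± 0.45 (SE), with an edgeR adjusted p of 0.463. Without CG mutant replicate 1 it was -0.36 ± 0.23, with an adjusted p of 0.962.

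Adamts4, the other aggrecanase, had 2.08 and 9.46 CPM in CG mutants, against 9.16 and 6.94 CPM in CG WT. The groups overlapped, since CG mutant replicate 2 was the highest of the 4. Its log2 fold change of -0.48 ± 0.54 turned to 0.23 ± 0.22 without CG mutant replicate 1.

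Adamts9, a protease that cuts versican and aggrecan, had 4.82 and 16.8 CPM in CG mutants, against 26.2 and 19.4 CPM in CG WT. Both CG mutant libraries were lower than both CG WT libraries, with a log2 fold change of -1.08 ± 0.45 (edgeR, adjusted p = 0.423). Without CG mutant replicate 1 the value was -0.45 ± 0.20.

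Adamts1, which can also cut aggrecan and versican, had 296 and 223 CPM in CG mutants, against 222 and 184 CPM in CG WT. The lowest CG mutant library lay just above the highest CG WT library. The log2 fold change was 0.35 ± 0.16, with an edgeR adjusted p of 0.455, and 0.13 ± 0.15 without CG mutant replicate 1. Unlike the other 4 proteases, it was higher in CG mutant replicate 1 than in the other CG libraries.

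Adamts2 removes the N-propeptide of fibrillar procollagens and is not known for cutting aggrecan. It had 1.87 and 9.20 CPM in CG mutants, against 7.68 and 7.62 CPM in CG WT, so its low value was that of 1 library. The log2 fold change of -0.46 ± 0.55 turned to 0.26 ± 0.22 without CG mutant replicate 1.

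Timp3, the inhibitor of both aggrecanases, had 8379 and 4251 CPM in CG mutants, against 2799 and 3000 CPM in CG WT. Both CG mutant libraries were above both CG WT libraries, and replicate 1 was far above replicate 2. The log2 fold change was 1.12 ± 0.28, with an unadjusted p of 0.00395 and an adjusted p of 0.251 by edgeR. DESeq2 gave 1.12 with an adjusted p of 0.000384. Without CG mutant replicate 1 the edgeR value was 0.55 ± 0.16 with an adjusted p of 0.557.

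The promoter of Timp3 is shown because this is the member that the tests below and DESeq2 called. These are the 300 bases around its annotated start, from RefSeq on the + strand of GRCm38.p6 at chr10:86300162-86300461, with the letters GGGCGG or CCGCCC, a motif of SP1, in capitals.
Timp3 promoter: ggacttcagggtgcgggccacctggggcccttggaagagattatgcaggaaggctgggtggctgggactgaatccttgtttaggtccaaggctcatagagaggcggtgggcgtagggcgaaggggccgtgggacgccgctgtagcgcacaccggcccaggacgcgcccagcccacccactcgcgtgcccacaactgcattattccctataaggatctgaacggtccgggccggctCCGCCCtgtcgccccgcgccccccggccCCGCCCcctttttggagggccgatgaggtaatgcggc

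That window held 2 SP1 matches on the minus strand, and 35.7% of 32851 promoters of the same length hold at least 1. Promoter sequences were found for 7 of the 9 members, all but Adamts4 and Adamts5. At least 1 SP1 match was present in 6 of these 7, all but Timp4. Neither TGANTCA, the letters of an AP-1 site, which 7.81% of promoters hold, nor TGTGGT, those of a RUNX site, which 16.8% hold, was in any of the 7 windows. Both strands were searched, and TGTGGT is also contained in the seed match CTGTGGT above.

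Timp1, a soluble inhibitor, had 4153 and 2602 CPM in CG mutants, against 2145 and 2422 CPM in CG WT. Both CG mutant libraries were the higher ones. The log2 fold change was 0.56 ± 0.26, with an edgeR adjusted p of 0.463, and 0.19 ± 0.24 without CG mutant replicate 1.

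Timp2 inhibits and also helps to activate the gelatinase Mmp2. Its values of 284 and 326 CPM in CG mutants overlapped those of 379 and 318 CPM in CG WT, at a log2 fold change of -0.19 ± 0.12, or -0.10 ± 0.14 without CG mutant replicate 1.

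Timp4 was counted 48 and 10 times in CG mutants, against 7 and 6 times in CG WT. Exact Poisson intervals (95%), which cover counting error only, were 35.4 to 63.6 and 4.80 to 18.4 in CG mutants and 2.81 to 14.4 and 2.20 to 13.1 in CG WT. Only the interval of CG mutant replicate 1 lay apart from the CG WT intervals. The fitted log2 fold change was 2.24 ± 0.80, with an edgeR adjusted p of 0.365, and 0.62 ± 0.72 without CG mutant replicate 1.

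With CG mutant replicate 1 as the only CG mutant library, the log2 fold changes were -2.03 for Adamts2, -1.95 for Adamts4, -2.05 for Adamts5 and -2.24 for Adamts9. Adamts1 stood at 0.55, Timp1 at 0.87, Timp2 at -0.29, Timp3 at 1.54 and Timp4 at 3.00. In that fit a single CG mutant library is assumed to vary like those of the other groups. With replicate 2 as the only CG mutant library, the values are those given above without CG mutant replicate 1. The 4 low proteases therefore moved together in 1 library, which is also the one with the lowest fibroblast, tendon and endothelial marker sums. The part of these marker differences in the members' values was not tested. Of the 7 members with a 3p seed match, 5 were below 0 and 2 above 0 in the CG comparison, while 50.6% of all genes were above 0. Timp1 and Timp3, which hold no match, were both above 0, at 0.56 and 1.12. Without CG mutant replicate 1, Adamts2 and Adamts4 moved above 0, and Timp1 and Timp3 stood at 0.19 and 0.55. A link between seed matches and direction was not tested.

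**Figure D3:**
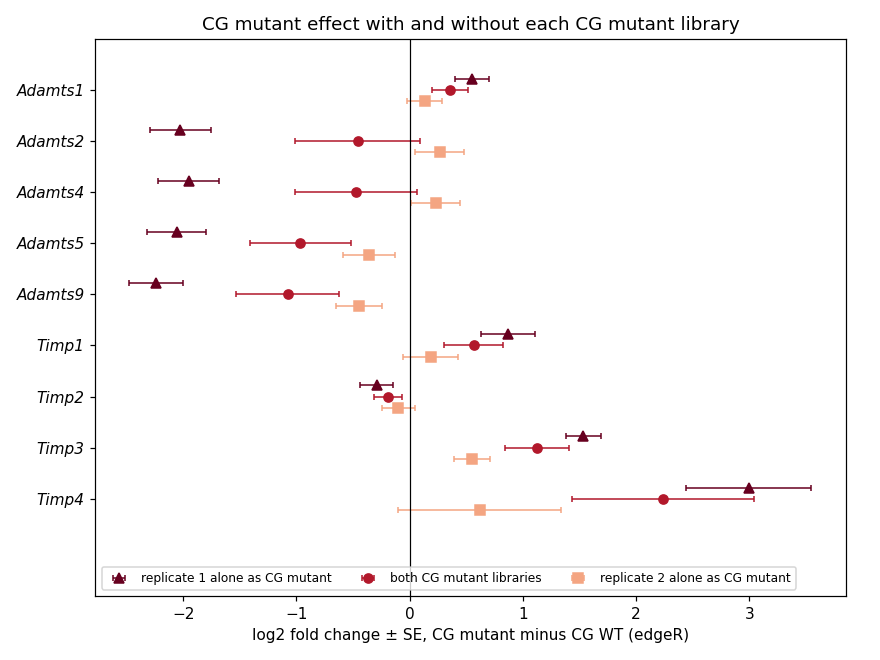
Log2 fold change (CG mutant minus CG WT, edgeR, with SE bars) of each member with both CG mutant libraries (circles), with replicate 1 alone (triangles) and with replicate 2 alone (squares). For Adamts2, Adamts4, Adamts5 and Adamts9 the triangles lie between -2.24 and -1.95 and the squares between -0.45 and 0.26.

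Balance between inhibitor and aggrecanases was summarised as Timp3 FPKM over the summed FPKM of Adamts4 and Adamts5. The ratio was 1383 and 183 in CG mutants, against 101 and 140 in CG WT. It was 124 and 138 in CT mutants, against 126 and 130 in CT WT. Both CG mutant ratios exceeded those of the other 6 libraries, with replicate 2 much nearer to them than replicate 1. In the CT line the 4 ratios overlapped. The ratio was not tested.

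The effect of the C>T base change is read from CT mutants against CT WT. No member passed the edgeR test, against 0.00696% of all genes, none had an unadjusted p under 0.05, against 5.11%, and none of the 8 members with an adjusted p passed by DESeq2, against 0.157%. Both CT mutant libraries were higher than both CT WT libraries in 2 members (Adamts4 and Timp2), against 17.2% of all genes, and lower in 1 (Timp4), against 16.3%. Timp4 is no support here either, since CT WT replicate 1 was among the libraries that carried it past the filter. Such p-values do not show that the groups were alike; the standard errors set how large a change could be missed.

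Adamts5 had 7.35 and 8.63 CPM in the CT mutants, against 11.6 and 8.60 CPM in CT WT. The groups overlapped by a narrow margin, with a log2 fold change of -0.34 ± 0.46. Adamts4 had 4.58 and 4.43 CPM in the CT mutants, against 4.30 and 4.32 CPM in CT WT, a log2 fold change of 0.06 ± 0.55. These are close values, and the standard error comes from the spread that all 4 groups share in the fit.

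Adamts1 had 145 and 164 CPM in the CT mutants, against 139 and 159 CPM in CT WT. Adamts9 had 14.6 and 16.9 CPM in the CT mutants, against 16.4 and 17.1 CPM in CT WT, and Adamts2 had 9.81 and 8.59 CPM in the CT mutants, against 8.36 and 11.0 CPM in CT WT. All 3 overlapped between the groups, with log2 fold changes of 0.05 ± 0.16, -0.08 ± 0.44 and -0.07 ± 0.53.

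Timp3 had 1244 and 1473 CPM in the CT mutants, against 1530 and 1354 CPM in CT WT, a log2 fold change of -0.09 ± 0.28. Timp2 had 400 and 347 CPM in the CT mutants, against 326 and 327 CPM in CT WT, a log2 fold change of 0.19 ± 0.12. Timp2 was thus higher in both CT mutant libraries by a margin smaller than the gap between those libraries.

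Timp1 had 1766 and 2244 CPM in the CT mutants, against 1544 and 2266 CPM in CT WT, a log2 fold change of 0.07 ± 0.26. In both CT groups replicate 2 was the higher library. Timp1 is X-linked, and the Y-linked gene Ddx3y was counted 3512 and 30 times in CT mutants, against 3669 and 10 times in CT WT, so the lower Timp1 value was in the library with Ddx3y in each case. In CG WT, where Ddx3y was counted 2 and 2511 times, Timp1 was lower in the library without it. Ddx3y was counted 2231 and 2360 times in CG mutants, so only CG WT held a library without it in that line. The part of sex in the members' values was not tested.

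Timp4 was counted 2 and 6 times in CT mutants, against 13 and 10 times in CT WT. The Poisson intervals of all 4 libraries overlapped at the edges of 6.92 to 7.22 counts, and the fitted log2 fold change was -1.55 ± 0.94.

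**Figure D4:**
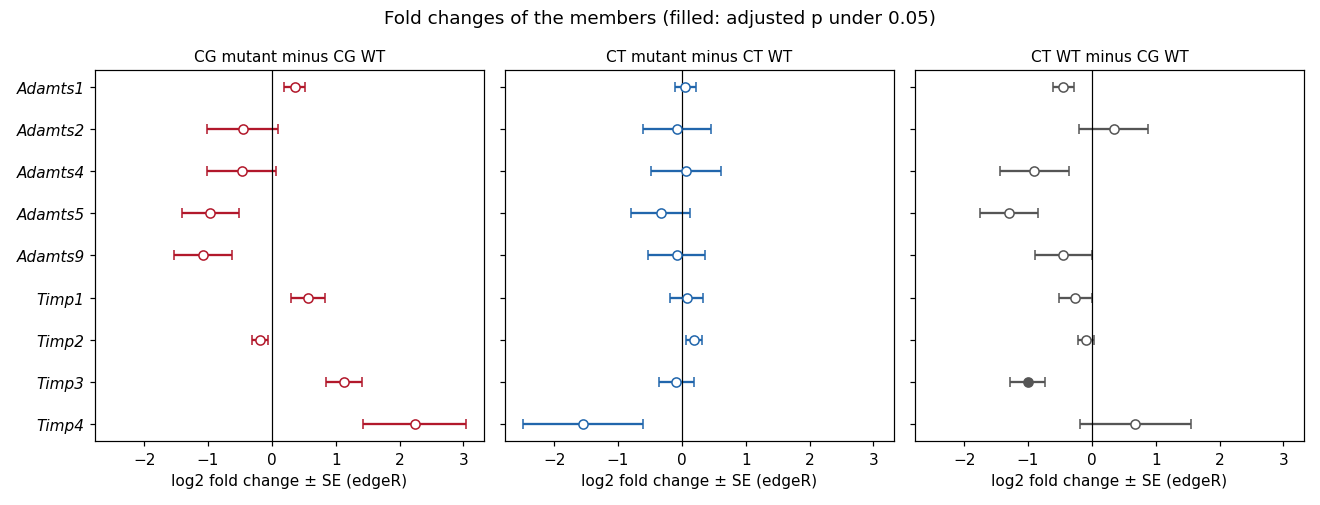
Log2 fold change with SE (edgeR) of the 9 members for CG mutants against CG WT, CT mutants against CT WT and CT WT against CG WT; a filled point has an adjusted p under 0.05. The single filled point is Timp3 in CT WT against CG WT, at -1.01.

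Averaged over both lines, the mutant effect was 0.52 ± 0.20 for Timp3, with an unadjusted p of 0.0299 and an adjusted p of 0.389 by edgeR. Without CG mutant replicate 1 it was 0.23 ± 0.10, with an adjusted p of 0.607. Timp3 was 1 of 9 members with an unadjusted p under 0.05, against 11.5% of all genes. None passed after adjustment, against 0.0% of all genes by edgeR, and none of 8 passed by DESeq2, against 1.71%. The 5 proteases had a median of -0.27 and the 4 inhibitors of 0.33, against 0.000 over all genes. Without CG mutant replicate 1, Adamts1, Adamts2 and Adamts4 were above 0, so the median of the 5 proteases was too. Of the 4 inhibitors only Timp4 was then below 0. The families thus no longer lay on opposite sides of 0.

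Among the proteases the mean effect was -0.65 ± 0.32 for Adamts5 and -0.58 ± 0.32 for Adamts9, and without CG mutant replicate 1 these were -0.35 and -0.27. Adamts1 stood at 0.20 ± 0.11, or 0.09 without that library. Adamts2 and Adamts4, at -0.27 ± 0.38 and -0.21 ± 0.38, turned to 0.09 and 0.14 without it. Timp1 stood at 0.32 ± 0.18, or 0.13 without it, and Timp4 at 0.34 ± 0.66, or -0.47 without it. Timp2 stood at 0.0005 ± 0.09 and took either sign depending on the scaling.

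The mutant effect in CG minus that in CT was 1.21 ± 0.39 for Timp3, with an edgeR unadjusted p of 0.0153 and adjusted p of 0.922, and 0.64 without CG mutant replicate 1. For Timp4 it was 3.78 ± 1.24 (0.0156 and 0.922), and 2.17 without that library. These were the 2 members with an unadjusted p under 0.05, against 4.78% of all genes, and Timp4 counts for little here because the groups high in this contrast carried it past the filter. After adjustment no member passed by edgeR, against 0.0209% of all genes, or by DESeq2, against 0.206%.

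For Adamts5 the difference between the lines was -0.63 ± 0.64, or -0.02 ± 0.30 without CG mutant replicate 1. For Adamts4 and Adamts2 it was -0.54 ± 0.77 and -0.38 ± 0.76, and these turned to 0.17 and 0.34 without that library. Adamts9 stood at -0.99 ± 0.63, or -0.36 without it, and Adamts1 at 0.30 ± 0.23, or 0.09 without it. Timp1 stood at 0.49 ± 0.37, or 0.12 without it, and Timp2 at -0.39 ± 0.18, or -0.29 without it. A difference between the lines was not shown for any member.

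The wild types of the lines were also compared, since they set the level against which each mutant was read. Of the 9 members 1, Timp3, passed the edgeR test, against 33.7% of all genes. At an unadjusted p under 0.05, 3 members passed (Timp3, Adamts5 and Adamts1), against 45.1% of all genes, and DESeq2 called the same 3, against 30.6%. Both CT WT libraries were higher than both CG WT libraries in 2 members (Adamts2 and Timp4), against 35.7% of all genes, and lower in 5 (Adamts1, Adamts4, Adamts5, Adamts9 and Timp3), against 35.5%. For Timp4 the limit set by the filter, given above, applies here too. Calls over all genes were 2436 higher and 2407 lower in CT WT. On the log2(FPKM + 1) scale they were 3053 higher and 1466 lower, with the median of all genes at 0.12, and Timp3 stood at -0.88 on that scale.

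Timp3 fell to 1530 and 1354 CPM in CT WT, against 2799 and 3000 CPM in CG WT, a log2 fold change of -1.01 ± 0.28 (edgeR, adjusted p = 0.0271). The groups were far apart. In size the change was close to the 1.12 between CG mutants and CG WT, which was 0.55 without CG mutant replicate 1. The adjusted p rose to 0.0799 to 0.128 when any 1 of the 4 WT libraries was left out, while the log2 fold change stayed between -1.10 and -0.92. On log2(FPKM + 1) with no filter, limma gave an adjusted p of 0.0579.

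Adamts5 had 11.6 and 8.60 CPM in CT WT, against 27.7 and 21.8 CPM in CG WT, a log2 fold change of -1.30 ± 0.45 (edgeR, adjusted p = 0.0573). The gene passed with DESeq2, at 0.00439, with no filter on low counts, at 0.0423, and with only the WT groups in the fit, at 0.00238. It passed as well without either CG mutant library, at 0.00174 and 0.00182, since the spread between these 2 libraries enters the shared error. The groups did not overlap, but the call thus rested on the fit.

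Adamts1 had 139 and 159 CPM in CT WT, against 222 and 184 CPM in CG WT, at -0.45 ± 0.16 with an edgeR adjusted p of 0.0637. It passed with DESeq2, at 0.0305, with only the WT groups in the fit, at 0.0313, and without either CG mutant library, at 0.0269 and 0.0270. Adamts4 had 4.30 and 4.32 CPM in CT WT, against 9.16 and 6.94 CPM in CG WT, at -0.90 ± 0.54 with an edgeR adjusted p of 0.231. It passed with only the WT groups in the fit, at 0.0146, and without either CG mutant library, at 0.00758 and 0.00886. So the proteases with aggrecanase activity and Timp3 all had lower values in CT WT, with calls for the proteases that depended on the fit.

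Adamts9 was at 16.4 and 17.1 CPM in CT WT, against 26.2 and 19.4 CPM in CG WT, a log2 fold change of -0.45 ± 0.44. Adamts2 was at 8.36 and 11.0 CPM in CT WT, against 7.68 and 7.62 CPM in CG WT, or 0.34 ± 0.54. Timp1 and Timp2 overlapped between the groups, at -0.26 ± 0.26 and -0.09 ± 0.12, with Timp2 at 0.04 on the log2(FPKM + 1) scale, and Timp4, with 13 and 10 counts in CT WT against 7 and 6 in CG WT, stood at 0.68 ± 0.87.

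Cell type markers moved with this comparison too. The fibroblast and tendon markers summed to 3195 and 2985 CPM in CT WT, against 1348 and 1174 CPM in CG WT, and the erythroid markers to 1518 and 865 CPM, against 10.8 and 16.8 CPM. Col1a1, Col1a2 and Col3a1 made up most of the fibroblast and tendon sum. Scx, Thbs4 and Dpt of that list were lower in both CT WT libraries, and its other markers were higher. The chondrocyte markers summed to 67220 and 55852 CPM in CT WT, against 37349 and 36375 CPM in CG WT. Col2a1 made up most of each sum, at 50163 and 40571 CPM, against 25753 and 24960 CPM. Acan and Col9a3 were lower in both CT WT libraries and Sox9 overlapped, while the other chondrocyte markers were higher. The macrophage and leukocyte markers summed to 357 and 320 CPM, against 565 and 482 CPM. Of these, Cd14 fell to 249 and 241 CPM, against 527 and 440 CPM, and Fcgr1 was lower as well. All other markers of that list were higher in both CT WT libraries, with Lyz2 at 33.8 and 25.6 CPM, against 8.40 and 11.1 CPM. Line, litter, culture and sequencing run cannot be told apart in this comparison. The part of cell makeup in it was not tested.

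Genes that act around these proteases and inhibitors were taken as 8 lists. In the CG and CT comparisons no gene of any list passed the edgeR test, so for these the values are given without a direction. Between the wild types, calls are set against the 33.7% of all genes that passed. The median log2 fold change of all genes was 0.003 in the CG comparison, -0.003 in the CT comparison and 0.003 between the wild types. In the CG comparison no gene of any list passed without CG mutant replicate 1 either. The lists' CG medians, in the order below, were then 0.23, 0.05, 0.02, 0.007, 0.17, -0.14, 0.02 and -0.14. In that fit 12 of the other ADAMTS proteases and 23 metalloproteinases passed the filter, against 11 and 22 with all libraries. All 16 genes named below by p for the CG comparison kept their sign without that library, but Adamtsl1 moved to -0.03, Thsd4 to -0.12 and Spock2 to -0.15.

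Of 11 tested genes among the other ADAMTS proteases, 1 was higher and 4 were lower in CT WT than in CG WT. Adamts3, a procollagen N-proteinase, fell to 6.95 ± 1.80 CPM in CT WT, against 14.4 ± 0.60 CPM in CG WT (edgeR adjusted p = 0.00539), and Adamts7, which can cut Comp, fell to 2.86 ± 0.34 CPM, against 10.2 ± 1.34 CPM (0.00741). In the CG comparison the smallest p-values were those of Adamts12, at 6.68 ± 3.02 CPM in the CG mutants and 2.01 ± 0.18 CPM in CG WT, and Adamts10, at 22.3 ± 0.75 and 18.2 ± 0.15 CPM. In the CT comparison they were those of Adamts13, at 1.94 ± 0.54 CPM in the CT mutants and 4.46 ± 0.13 CPM in CT WT, and Adamts12, at 3.02 ± 0.57 and 2.15 ± 0.95 CPM. The list's median log2 fold change was -0.27 (CG), -0.001 (CT) and 0.08 (wild types).

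Of 7 ADAMTS-like genes, which lack the protease domain, 1 was higher and 0 were lower in CT WT. That gene was Adamtsl4, at 24.5 ± 3.62 CPM in CT WT and 16.4 ± 0.40 CPM in CG WT (edgeR adjusted p = 0.0173). Adamtsl3 stood at 11.9 ± 2.90 and 17.2 ± 2.74 CPM there (0.0582). In the mutant comparisons the smallest p-values were those of Adamtsl1 and Thsd4 (CG, -0.60 ± 0.48 and -0.22 ± 0.23) and of Adamtsl3 and Adamtsl4 (CT, 0.43 ± 0.19 and 0.10 ± 0.14). Over the list the median log2 fold change was -0.01 (CG), 0.07 (CT) and -0.44 (wild types).

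Of 13 aggrecanase substrates and their partners, 3 were higher and 3 lower in CT WT than in CG WT. Comp, a pentameric cartilage protein, rose to 1065 ± 95.5 CPM in CT WT, against 230 ± 21.3 CPM in CG WT (edgeR adjusted p = 0.000124), and Dcn, the small proteoglycan decorin, fell to 559 ± 155 CPM, against 2627 ± 79.4 CPM (0.000277). The nervous system proteoglycans Bcan and Ncan had the smallest p-values in the CG comparison, at log2 fold changes of 1.23 ± 0.34 and 1.63 ± 0.62, and Comp and Hapln3 in the CT comparison, at -0.37 ± 0.13 and 0.59 ± 0.26. Aggrecan itself, Acan, had 6966 and 3724 CPM in the CG mutants and 3864 and 3502 CPM in CG WT. In CG mutant replicate 1 it was thus high together with Timp3 and Adamts1. As a median, the list stood at -0.03 (CG), 0.10 (CT) and 0.56 (wild types).

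Of 10 genes that activate the proteases or take them up, 1 was higher and 4 were lower in CT WT. Pcsk5, a proprotein convertase, fell to 5.85 ± 0.91 CPM in CT WT, against 24.2 ± 2.15 CPM in CG WT (edgeR adjusted p = 0.000261). Lrp1, the endocytic receptor that clears both aggrecanases and Timp3, fell to 622 ± 56.0 CPM, against 1494 ± 105 CPM (0.000914). Sdc4, a syndecan that binds Adamts5, had the smallest p in both mutant comparisons. It stood at 818 and 1013 CPM in CG mutants, against 1279 and 1328 CPM in CG WT, and at 970 and 987 CPM in the CT mutants, against 1546 and 1241 CPM in CT WT. Both mutants of each line were below both of their wild types, at log2 fold changes of -0.51 ± 0.15 in each line and edgeR adjusted p of 0.289 in CG and 0.958 in CT. Next by p were Mmp17 in the CG comparison, at 0.37 ± 0.28, and Furin in the CT comparison, at -0.17 ± 0.08. The median over its genes was -0.02 (CG), -0.04 (CT) and -0.16 (wild types).

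Of 22 metalloproteinases that TIMPs inhibit, 2 were higher and 6 lower in CT WT. Mmp3, stromelysin, fell to 847 ± 297 CPM in CT WT, against 22368 ± 4663 CPM in CG WT (edgeR adjusted p = 0.00013), and Mmp12, macrophage elastase, to 10.4 ± 2.40 CPM, against 447 ± 29.8 CPM (0.00013). In the CG comparison the smallest p-values were those of the sheddase Adam10, at 0.60 ± 0.10, and Mmp12, at -1.45 ± 0.28. Mmp12 had 111 and 216 CPM in the CG mutants, against 468 and 425 CPM in CG WT, with an edgeR adjusted p of 0.181. In the CT comparison they were those of Adam10, at 0.22 ± 0.10, and Adam12, at 0.42 ± 0.20. The list's median was -0.06 (CG), 0.11 (CT) and -0.30 (wild types).

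Of 6 other natural inhibitors 1 was higher and 1 lower in CT WT. Reck, a membrane-anchored inhibitor, fell to 32.8 ± 1.20 CPM in CT WT, against 50.7 ± 2.24 CPM in CG WT (edgeR adjusted p = 0.00236), and Spock2, a testican, rose to 4.77 ± 0.66 CPM, against 1.27 ± 0.06 CPM (0.00482). In the mutant comparisons the smallest p-values were those of Spock1 and Spock2 (CG, -1.83 ± 1.03 and -0.62 ± 0.38) and of Reck and Tfpi2 (CT, 0.25 ± 0.09 and 0.74 ± 0.49). Over the list the median log2 fold change was -0.003 (CG), 0.13 (CT) and 0.28 (wild types).

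Among 11 procollagen substrates and partners of the N-proteinases, 4 were higher and 2 lower in CT WT. Tll1, a tolloid-like protease, fell to 8.98 ± 0.82 CPM in CT WT, against 25.7 ± 0.82 CPM in CG WT (edgeR adjusted p = 0.000601). Col1a1, a type I collagen chain, rose to 1135 ± 161 CPM, against 307 ± 6.98 CPM (0.0132), beside the higher fibroblast and tendon marker sums to which it belongs. In the CG comparison Tll1 and Bmp1 led by p, at -0.53 ± 0.15 and 0.21 ± 0.08, and in the CT comparison Col2a1 and Tll1, at -0.54 ± 0.27 and -0.24 ± 0.16. As a median, the list stood at -0.11 (CG), -0.17 (CT) and 0.08 (wild types).

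Of 16 genes listed as inducers of the aggrecanases and their receptors, 0 were higher and 8 lower in CT WT than in CG WT. Over all 14359 genes, 2436 were called higher and 2407 lower. In the list 15 of the 16 were below 0, while 50.2% of all genes were above 0. The list also holds Nfkb1, Rela, Nfkbia and Runx2, which are not cytokines or their receptors. The median over its genes was -0.34 (CG), -0.13 (CT) and -0.67 (wild types). Il6, a cytokine, fell to 1.51 ± 0.16 CPM in CT WT, against 49.5 ± 3.77 CPM in CG WT (edgeR adjusted p = 0.00224), and its signalling receptor chain Il6st to 373 and 338 CPM, against 619 and 609 CPM (0.00113). Adamts4, Adamts5 and Adamts1 had lower values in CT WT in the same comparison. A link between these proteases and the genes of this list was not tested. Line, litter, culture and sequencing run cannot be told apart in this comparison. In the CG comparison Il1r1, the interleukin 1 receptor, and Il6st led by p, at 0.49 ± 0.12 and -0.34 ± 0.10, and in the CT comparison Tlr4 and Tlr2, at 0.31 ± 0.11 and -0.59 ± 0.29.

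Likeness of pattern was measured for 3 members as Pearson's r of log2 CPM over the 8 libraries after each line's mean was removed, among 11900 genes. Adamts5 was most like Slc40a1, the iron exporter ferroportin (r = 0.998), Gm5785 (0.989) and Ptafr, the receptor of platelet-activating factor (0.989). Adamts4 was most like Hsd3b7 (0.991), Tnxb (0.990) and Zfp53 (0.990), and Timp3 was most like Arfgef2 (0.991), Fip1l1 (0.991) and Septin5 (0.988). All 9 r values lean on CG mutant replicate 1. Without it they were 0.905 to 0.981 for Adamts5, 0.778 to 0.914 for Adamts4 and 0.927 to 0.949 for Timp3. The libraries share their lines and depth, and the genes were picked for the highest r, so these values are a description.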

How the data were processed

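RNA of plated rib cartilage chondrocytes was sequenced on DNBSEQ, per the series design text. Alignment with HISAT2 2.0.4 and the mm9 build are named in the submitters' processing notes; which read counter and annotation were used, and whether strand was, is not stated in them. Per the file headers, the authors' deposited table holds FPKM values and estimated counts for every gene in each library. Those estimated counts carry no normalization by the authors and were rounded to whole numbers here. The authors' deposited table of comparisons, with log2 ratios and q-values for 2655 genes, lists none of the 9 members and was not used further.

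All groups, with 2 libraries each, entered 1 fit of group means in edgeR 4.0.16 (R 4.3.3), with TMM factors, the filterByExpr defaults (14359 genes kept), the quasi-likelihood F test and Benjamini-Hochberg adjustment at 0.05. Standard errors follow from the log2 fold change and the square root of F. DESeq2 1.42.0, limma 3.58.1 on log2(FPKM + 1) or log2(FPKM + 0.1), RLE factors, no filter, only the groups compared, the replicate number as a block, and each library left out were alternatives.

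Separate animals or cultures are not named in the labels, so p-values reflect only how these libraries spread, which may be technical. The members and lists were chosen with earlier results of these data known. All members are named in every comparison, and of each list the 2 genes with the smallest p in the CG, CT and wild-type comparisons. Acan and Ddx3y were named after their values were seen. Depth limits Timp4 most, at 2 to 48 counts.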

Additional observations from a re-analysis of the deposited data

Results flagged for a closer look

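The mutant effect on Timp4 in CG minus that in CT was 3.78 on the log2 scale, because both CG mutant libraries lay above both CG WT libraries while both CT mutant libraries lay below both CT WT libraries. The counts behind it were 48 and 10 in CG mutants, against 7 and 6 in CG WT, and 2 and 6 in CT mutants, against 13 and 10 in CT WT. Timp4 passed the filter on low counts only through CG mutants and CT WT, the groups that are high in this difference, so it is no support for one. By edgeR the difference had an adjusted p of 0.922, and over the alternatives with counts its adjusted p ran from 0.0653 to 1.0. Without CG mutant replicate 1 it was 2.17.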

How the results depend on the processing

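Counts of members that passed the test changed little in the mutant comparisons apart from CG mutant replicate 2, whose removal gave the highest counts. Over fits that left out 1 library each, members called were 0 to 6 in CG mutants against CG WT, 0 to 5 for the mean effect, 0 to 4 for the difference between the lines and 0 to 4 for CT WT against CG WT. By DESeq2 1 member passed in the CG comparison. In CT WT against CG WT, where 1 member passed, 2 passed with no filter, 3 with DESeq2, 4 with only the groups compared and 0 on log2(FPKM + 1) with no filter.

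Genes called in the CG comparison, 1 in the fit reported, were 213 by DESeq2, 13 with no filter, 5 and 4 on log2(FPKM + 1) and log2(FPKM + 0.1), 0 on log2(FPKM + 1) with no filter, and 1 to 522 with 1 library left out. For CT, 1 in the fit reported, they were 20 by DESeq2, 2 with no filter, 3 with only the groups compared, 2 on log2(FPKM + 1) with no filter, and 0 to 4 with 1 library left out. For the mean effect, 0 in the fit reported, they were 206 by DESeq2, 1 with no filter, and 0 to 319 with 1 library left out. For the difference between the lines, 3 in the fit reported, they were 38 by DESeq2, 5 with no filter, 1 on log2(FPKM + 1) with no filter, and 1 to 97 with 1 library left out. For CT WT against CG WT, 4843 in the fit reported, they were 2137 to 5324 with 1 library left out. The cause of these shifts was not tested.

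With the replicate number as a block, genes called were 4 for CT, 5 for the mean effect and 6 for the difference between the lines, and members called in CT WT against CG WT were 2, with Adamts1 added. The numbers are not said to mark a shared animal or day. Deviations of same-numbered libraries correlated at r = -0.138 in CG and 0.323 in CT over 14359 genes. In CT the same-numbered libraries also match in Ddx3y, at 3512 and 3669 counts in replicates 1 of CT mutants and CT WT and 30 and 10 in replicates 2. Whether same-numbered libraries are paired is thus not known, and the fit reported does not pair them.

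Over 45 member results, the other alternatives kept direction and side of the threshold in 313 of 332 cases. Fits with 1 library left out did so in 314 of 360, with 21 reversed, 21 newly past the threshold and 4 no longer past it. The mean effect on Timp2, 0.0005 in the fit reported, was -0.0026 with RLE factors, -0.0016 with no filter, -0.0023 by DESeq2, -0.0002 with the block, -0.006 on log2(FPKM + 1) with or without a filter and -0.0063 on log2(FPKM + 0.1). Timp2 in CT WT against CG WT, -0.09, was 0.038 and 0.0384 on the FPKM scales. With 1 library left out the sign turned within these ranges. In the CG comparison they were -2.03 to 0.26 for Adamts2 and -1.95 to 0.23 for Adamts4. In the CT comparison they were -0.0404 to 0.155 for Adamts1, -0.26 to 0.14 for Adamts2, -0.192 to 0.0165 for Adamts9, -0.18 to 0.38 for Timp1 and -0.213 to 0.0309 for Timp3. For the mean effect they were -1.05 to 0.0923 for Adamts2, -0.95 to 0.14 for Adamts4, -0.0601 to 0.0629 for Timp2 and -0.47 to 0.72 for Timp4. For the difference between the lines they were -1.95 to 0.34 for Adamts2 and -2.01 to 0.17 for Adamts4, and in CT WT against CG WT -0.21 to 0.0361 for Timp2. The lone library of a group is there assumed to vary like the others. With 2 libraries per group, the fits left out are no check of differences between animals.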
